A study of Rattus norvegicus with 22 samples.

Results

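The 45 genes described here encode the parts of Wnt signalling that sit outside the cell or at its surface, together with a pair of intracellular factors that report on the pathway. They comprise 19 Wnt ligands, 10 Frizzled receptors, the 4 co-receptors Lrp5, Lrp6, Ror1 and Ror2, 10 modulators (Sfrp1, Sfrp2, Sfrp4, Sfrp5, Wif1, Dkk1, Dkk2, Dkk3, Dkk4 and Apcdd1), and the intracellular Axin2 and Lef1. They were picked by symbol out of the 32883 genes of the count table, as every name made of Wnt, Fzd, Sfrp or Dkk and a number, plus the 8 single genes Lrp5, Lrp6, Ror1, Ror2, Wif1, Apcdd1, Axin2 and Lef1. The symbol rule itself uses no measured value, but it was set with earlier results of these data known.

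The study sequenced RNA from the ventral side of cervical cord segments C3-C6 to ask what loss of the gonads changes in this tissue in each sex. All 22 animals were Sprague-Dawley rats aged 3 to 4 months, and each gave a library of its own. The 5 GDX males had been castrated and the 6 OVX females ovariectomized 2 weeks before the tissue was taken. The 5 males with testes (intact males) and the 6 virgin females with ovaries (intact females) were matched to them in age, and the methods describe no sham operation.

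Total counts per library lay between 13008232 and 15558910 in intact males (median 14196615), between 14632278 and 16955037 in GDX males (median 15645521), between 13374274 and 17530586 in intact females (median 14640726) and between 12371756 and 17571887 in OVX females (median 14766802.5). The 45 genes took between 0.0326% and 0.0423% of a library. Levels are given as CPM, counts divided by library size after scaling with TMM factors, and changes as log2 fold changes, also called log2 ratios. At these depths a count of 0 allows up to 3 counts, which is 0.171 CPM in the deepest library and 0.242 CPM in the shallowest. Such limits cover counting error only, since the reads carried no molecular identifiers. The p-values set a difference between groups against the spread between rats. With a single library per rat, that spread includes differences in library preparation. Gene lengths were not available, so levels of different genes are not compared. Libraries fell into 2 classes of average fragment size. The 7 libraries of the long class came from intact males 1, 3 and 6 and intact females 2, 3, 5 and 6, whereas all GDX and OVX libraries were among the 15 of the short class, so class and surgery cannot be fully told apart.

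Marker genes of the tissue and of sex were looked up. All 10 motor neuron markers had counts, with Nefh the most counted, and their summed level lay between 4150 and 7420 CPM per rat, most of it Nefh (mean 4900 of 5630 CPM in intact males). The 10 dorsal horn markers, also counted, summed to 5.04 to 13.9 CPM, and the lists are not compared in level. The Y-linked genes Kdm5d and Eif2s3y had no count in the 12 females and mean levels of 34.5 and 41 CPM in intact males. The other Y-linked gene of the list, Ddx3y, had means of 1.17 CPM in intact males and 0.779 CPM in intact females and was not called between the sexes.

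Wnt proteins are lipid-modified ligands that bind a Frizzled receptor together with a co-receptor. With Lrp5 or Lrp6 the signal stabilizes beta-catenin, which enters the nucleus and switches on target genes with Lef1 and Tcf factors, while other ligands act through Ror receptors on cell shape, polarity and calcium. Secreted Frizzled-related proteins, Wif1, Dickkopf proteins and Apcdd1 limit the signal, and Axin2 is both a target and a brake. In the spinal cord the pathway patterns the embryo and guides axons, and in the vessels of the central nervous system Wnt7a and Wnt7b maintain the blood-brain barrier.

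Among the ligands, Wnt7a (8142 counts in all libraries together) and Wnt7b (4711) were the most counted. Wnt3a and Wnt8a had 0 counts in all 22 libraries, and Wnt1 had 2 counts, both in intact male 5. Fzd3 (9613) and Fzd10 (6612) were the most counted Frizzled receptors, and Fzd8 had 21 counts. Lrp6 had 23443 counts and Lrp5 6964. Dkk3 (18985) and Apcdd1 (6517) led the modulators, and Dkk1 had 0 counts in every library. Axin2 had 8810 counts and Lef1 2550. The filter on low counts kept 30 of the 45 genes for the test in males and dropped Wnt1, Wnt2, Wnt2b, Wnt3, Wnt3a, Wnt8a, Wnt9b, Wnt10a, Wnt10b, Wnt11, Fzd8, Dkk1, Dkk2, Dkk4 and Sfrp2. The female test also had 30 genes, with Dkk2 kept and Wnt8b dropped. A gene can pass this filter through the group where it is high.

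In males, removal of the testes went with higher levels of several ligands and of the modulators Apcdd1, Dkk3 and Sfrp1. The readout genes Axin2 and Lef1 were higher by small amounts. Several calls were lost in many of 12 alternatives, such as 8 for Lef1, 6 each for Axin2 and Sfrp1 and 5 for Wnt5a. Those of Apcdd1 and Wnt4 were kept in 11. The number of genes called stayed at 10 to 13 in 6 alternatives. It fell to 4 with fragment class as a term, 2 in the short class and 0 with meningeal marker level as a term. Wnt6, Wnt4, Wnt16 and Wnt5b were 2.32 to 4.98 times as high in GDX as in intact males, and Apcdd1 was 1.5 times as high. At an adjusted p under 0.1 (edgeR's quasi-likelihood test with Benjamini-Hochberg adjustment), 12 of the 30 genes tested differed, 11 higher and 1 lower in GDX males, which is 40% of them, against 13.4% of the 14931 genes tested (6.78% higher and 6.58% lower). At an unadjusted p under 0.05 there were 17, against 23.8% of all genes tested. The groups did not overlap for 5 genes higher in GDX males (3.54% of all genes) and 1 lower (3.94%). The median log2 fold change was 0.22 over the 30 genes and 0.002 over all genes tested, and 22 of the 30 values were positive. By role, 5 of 9 ligands tested were higher, 1 of 9 Frizzled receptors was higher and 1 lower, 0 of 4 co-receptors passed, 3 of 6 modulators were higher, and both Axin2 and Lef1 were higher.

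**Figure D1:**
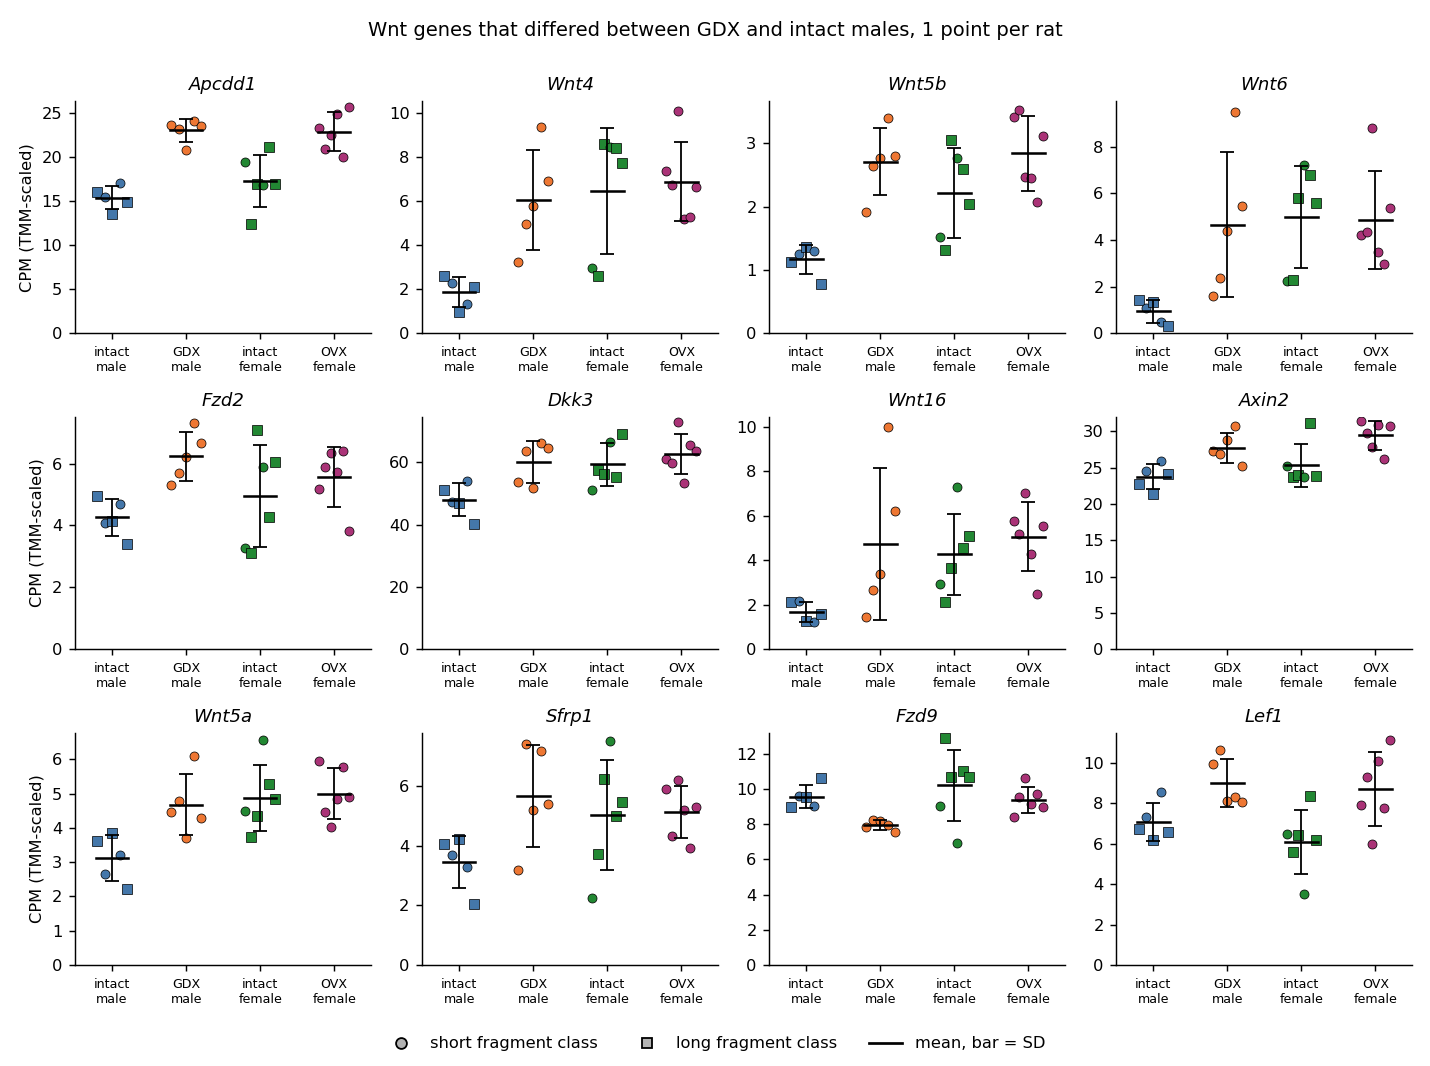
CPM of the 12 genes that differed between GDX and intact males, 1 point per rat in each of the 4 groups, with the mean as a line and the SD as a bar; squares are libraries of the long fragment class. For Apcdd1 the 5 GDX males lie between 20.8 and 24.1 CPM and the 5 intact males between 13.5 and 17.1.

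Apcdd1 and Wnt6 both rose in GDX males, though not rat by rat, since GDX male 1 had the lowest Wnt6 of its group and nearly the highest Apcdd1. Their promoter sequences are shown so that what lies next to their start sites can be read. RefSeq promoters (build GRCr8; the counts rest on the older build Rnor_6.0) were found for 32 of the 45 genes, and the 250 bases before each start were searched on both strands. The motifs were the TCF/LEF site CTTTGAT, the androgen response element (AGAACA, any 3 bases, TGTTCT) and the oestrogen response element (GGTCA, any 3 bases, TGACC), and, added after the sequences had been seen, the GC box GGGCGG. The GC box occurred in 18 of the 32 promoters (56.2%), against 30.5% of all 33469 promoters, and median GC content was 65.4% against 51.2%. Neither hormone element occurred in the 32 windows, and they occurred in 0.012% (androgen) and 0.0239% (oestrogen) of all promoters. The TCF/LEF letters occurred in 1 of the 32, that of Axin2, 132 bases before the start, against 3.15% of all promoters. The Axin2 promoter is printed for that match, a choice made after it was seen. Capitals mark GC boxes on either strand in Apcdd1 (chr18:58655446-58655695, plus strand) and Wnt6 (chr9:83778302-83778551, plus strand), and the TCF/LEF letters in Axin2 (chr10:94398535-94398784, plus strand).
Apcdd1: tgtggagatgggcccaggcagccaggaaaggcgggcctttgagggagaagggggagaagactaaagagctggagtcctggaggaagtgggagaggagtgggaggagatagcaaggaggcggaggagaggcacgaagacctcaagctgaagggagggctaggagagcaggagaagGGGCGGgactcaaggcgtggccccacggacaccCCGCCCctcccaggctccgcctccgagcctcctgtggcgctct
Wnt6: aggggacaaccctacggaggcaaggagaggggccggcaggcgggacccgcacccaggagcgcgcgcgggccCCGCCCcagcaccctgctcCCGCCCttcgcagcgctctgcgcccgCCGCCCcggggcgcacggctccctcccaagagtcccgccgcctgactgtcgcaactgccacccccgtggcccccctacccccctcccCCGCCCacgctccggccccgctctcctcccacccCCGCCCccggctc
Axin2: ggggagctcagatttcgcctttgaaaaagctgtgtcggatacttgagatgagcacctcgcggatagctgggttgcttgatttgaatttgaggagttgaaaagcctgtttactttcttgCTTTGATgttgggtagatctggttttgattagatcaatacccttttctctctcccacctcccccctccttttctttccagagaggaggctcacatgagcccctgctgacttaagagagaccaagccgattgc
Apcdd1 holds 2 GC boxes, 76 and 43 bases before the start, and Wnt6 holds 5, between 179 and 13 bases before it. Their GC content is 65.2% and 79.6%, and that of Axin2 is 47.6%. A match describes the letters of the window and not a bound site.

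Wnt4 (ENSRNOG00000013166), a ligand known from kidney and female gonad development, had 2.62, 2.29, 0.982, 1.36 and 2.1 CPM in intact males 1, 2, 3, 5 and 6, and 3.25, 4.96, 5.8, 9.36 and 6.91 CPM in GDX males 1, 2, 4, 5 and 6. Every GDX male was above every intact male, with GDX male 5 the highest and GDX male 1 the nearest to the intact rats. The mean was 1.87 ± 0.679 CPM (SD, n = 5) in intact and 6.06 ± 2.28 CPM (SD, n = 5) in GDX males, a log2 ratio of 1.69 ± 0.29 (SE) with an adjusted p of 0.00611. Wnt6 (ENSRNOG00000017409), a ligand made by many epithelia, had 1.42, 1.11, 1.36, 0.495 and 0.328 CPM in the intact males in the same order, and 1.59, 2.37, 4.38, 9.5 and 5.47 CPM in the GDX males. The groups did not overlap, but GDX male 1 lay close to the highest intact male and GDX male 5 again stood highest. Its log2 fold change was 2.32 ± 0.47 (SE, adjusted p = 0.0102), and without GDX male 5 it was 1.89.

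Wnt5b (ENSRNOG00000008168), a ligand of the branch that does not use beta-catenin, had 1.13, 1.26, 1.36, 1.3 and 0.787 CPM in intact males and 1.92, 2.65, 2.77, 3.4 and 2.8 CPM in GDX males. Again no values overlapped, and the GDX males differed less among themselves than for Wnt4 or Wnt6. Its log2 fold change was 1.21 ± 0.22 (SE, adjusted p = 0.0068). Wnt16 (ENSRNOG00000005781), a ligand best known from bone, had 2.13, 2.15, 1.28, 1.24 and 1.57 CPM in intact males and 1.46, 2.65, 3.37, 10 and 6.19 CPM in GDX males. Here GDX male 1 fell within the intact range, and the other GDX males lay above it. On the log2 scale the difference was 1.49 ± 0.42 (SE, adjusted p = 0.0389), and without GDX male 5 it was 1.03 with an adjusted p of 0.113. Of 12 alternatives, 7 kept the Wnt16 call, 4 lost it and 1 reversed the sign. Wnt5a (ENSRNOG00000015618), the best studied ligand of Ror receptors, had 3.61, 2.66, 3.85, 3.21 and 2.23 CPM in intact males and 4.45, 4.79, 3.71, 6.1 and 4.3 CPM in GDX males. A single pair overlapped, GDX male 4 lying below intact male 3. This gave a log2 ratio of 0.58 ± 0.19 (SE, adjusted p = 0.066), and the call was lost in 5 of 12 alternatives and 5 of 10 fits with a rat left out.

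The most counted ligands, which keep up the barrier of brain and cord vessels, did not pass the test. Wnt7a (ENSRNOG00000048782) had 21.8, 26.7, 26.1, 28.9 and 27.1 CPM in intact males and 22, 22.7, 20.8, 25 and 24.4 CPM in GDX males. Wnt7b (ENSRNOG00000015750) had 14.8, 16.2, 15.6, 17 and 14.1 CPM in intact males and 15, 12.8, 12.3, 14 and 18.4 CPM in GDX males. Both sets overlapped, with log2 fold changes of -0.18 (adjusted p = 0.162) and -0.1 (adjusted p = 0.611). The other ligands tested, Wnt9a and Wnt8b, had log2 ratios of 0.14 and -0.31 at adjusted p of 0.871 and 0.631.

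Of the Frizzled receptors, Fzd2 (ENSRNOG00000021962), which can bind Wnt5a, had 4.96, 4.07, 4.15, 4.7 and 3.41 CPM in intact males and 5.31, 5.71, 6.2, 7.3 and 6.65 CPM in GDX males. The groups did not overlap, although GDX male 1 and intact male 1 were close. The difference came to a log2 ratio of 0.55 ± 0.14 (SE, adjusted p = 0.0285), and the call was lost in 4 of 12 alternatives. Fzd9 (ENSRNOG00000001452), a receptor expressed by neurons, had 9, 9.62, 9.52, 9.02 and 10.6 CPM in intact males and 7.83, 8.25, 8.16, 7.94 and 7.56 CPM in GDX males. It was the single gene of the 12 that was lower, with all GDX males below all intact males, and it fell by 0.26 ± 0.09 (SE) on the log2 scale (adjusted p = 0.077). That call was lost in 10 of 12 alternatives and in 8 of 10 fits with a rat left out. Fzd3 (ENSRNOG00000047211), needed for axon guidance, had 29.3, 31.4, 33.3, 28.7 and 28.2 CPM in intact males and 26.3, 31.9, 33, 29.4 and 29 CPM in GDX males. Fzd10 (ENSRNOG00000022784) had 23.7, 18, 21.3, 19.9 and 25.1 CPM in intact males and 18.8, 21.2, 21, 19.5 and 20.8 CPM in GDX males. The ranges of both overlapped widely, with log2 fold changes of -0.01 (adjusted p = 0.957) and -0.09 (adjusted p = 0.562). The other 5 Frizzled receptors tested were not called, with Fzd7 at 0.44 (adjusted p = 0.152) and Fzd4 at 0.34 (adjusted p = 0.137) nearest to the threshold.

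None of the 4 co-receptors was called by edgeR. Lrp6 (ENSRNOG00000006338), the main co-receptor for beta-catenin signalling, had 69.3, 68.2, 63, 71 and 69.1 CPM in intact males and 77.2, 71.1, 78.3, 75.2 and 68.1 CPM in GDX males. Lrp5 (ENSRNOG00000015911), its close relative, had 17.4, 20.4, 17.7, 20.1 and 20.1 CPM in intact males and 22.4, 21.4, 19.2, 21.3 and 22.2 CPM in GDX males. In each gene 1 GDX male lay among the intact rats, number 6 for Lrp6 and number 4 for Lrp5, and the others were above them. The log2 fold changes were 0.12 (adjusted p = 0.164) and 0.15 (adjusted p = 0.195). Ror1 and Ror2, receptors for Wnt5a, had values of -0.19 and 0.22 with adjusted p of 0.6 and 0.622.

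Among the modulators, Apcdd1 (ENSRNOG00000043304), a membrane protein that inhibits Wnt signalling and is made by vessels of the central nervous system, had the smallest p of the 30 genes and ranked 8 among all genes tested. It had 16, 15.5, 13.5, 17.1 and 14.9 CPM in intact males and 23.7, 23.2, 20.8, 24.1 and 23.5 CPM in GDX males. The groups were well apart, and the spread within each was small. The mean was 15.4 ± 1.32 CPM (SD, n = 5) in intact and 23.1 ± 1.28 CPM (SD, n = 5) in GDX males, a log2 ratio of 0.58 ± 0.07 (SE, adjusted p = 0.00152). Dkk3 (ENSRNOG00000016343), a Dickkopf relative whose effect on Wnt signalling varies with the cell, had 51.3, 47.3, 47.1, 54.1 and 40.1 CPM in intact males and 53.8, 63.8, 51.7, 66.4 and 64.5 CPM in GDX males. GDX males 2, 5 and 6 were above all intact males, and GDX males 1 and 4 lay among the highest of them. The log2 fold change was 0.32 ± 0.09 (SE, adjusted p = 0.0299), and the call was lost in 3 of 12 alternatives. Sfrp1 (ENSRNOG00000017783), a secreted decoy that binds Wnt proteins, had 4.04, 3.7, 4.23, 3.28 and 2.03 CPM in intact males and 3.18, 7.39, 5.19, 7.16 and 5.41 CPM in GDX males. GDX male 1 lay within the intact range and the other GDX males above it. On the log2 scale the difference was 0.72 ± 0.23 (SE, adjusted p = 0.072), and the call was lost in 6 of 12 alternatives and 7 of 10 fits with a rat left out. Sfrp5, Sfrp4 and Wif1 were not called, with log2 ratios of 0.96, 0.23 and -0.23 at adjusted p of 0.344, 0.604 and 0.546.

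Both intracellular genes were higher in GDX males by small amounts. Axin2 (ENSRNOG00000055010), a scaffold of the complex that destroys beta-catenin and a common readout of the pathway, had 22.8, 24.6, 21.4, 26 and 24.2 CPM in intact males and 27.3, 26.9, 28.8, 30.7 and 25.2 CPM in GDX males. GDX male 6 was below intact male 5, and the other GDX males were above every intact male. This gave a log2 ratio of 0.22 ± 0.07 (SE, adjusted p = 0.0603). Lef1 (ENSRNOG00000010121), a DNA-binding partner of beta-catenin, had 6.73, 7.33, 6.19, 8.53 and 6.56 CPM in intact males and 9.95, 10.6, 8.09, 8.3 and 8.08 CPM in GDX males. Intact male 5 overlapped the GDX range, and the other intact males lay below it. The difference came to a log2 ratio of 0.35 ± 0.12 (SE, adjusted p = 0.0893). The Lef1 call was lost in 8 of 12 alternatives and 7 of 10 fits with a rat left out, and the Axin2 call in 6 and 4 of them. With fragment class as a term Apcdd1, Wnt4, Wnt5b and Wnt6 were the 4 of the 12 still called, and within the short class, where 2 intact males remain, Apcdd1 and Wnt4 were. Under both settings Lef1 had a log2 ratio of 0.18, and Axin2 had 0.13 with the term and 0.14 within the class.

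Markers of other cell types moved in the same males. Of the 18 markers of meninges and fibroblasts, the cells that wrap the cord, 16 were in the table, and all 15 tested were higher in GDX males, with a median log2 fold change of 1.53. Foxc1 (1.19), Slc6a13 (1.57) and Col3a1 (1.73) had the smallest p. Their summed level was 193, 153, 151, 114 and 95.3 CPM in intact males and 189, 281, 397, 532 and 435 CPM in GDX males. Col1a1 was the most counted, with means of 33.3 and 117 CPM, and no marker was at 0 in every library. GDX male 5 was highest and GDX male 1 lowest of the GDX males for this sum, as for Wnt4, Wnt6, Wnt16, Wnt5b and Fzd2. The others of the 12 genes called did not have both. Intact male 1 lay above GDX male 1 for the sum and for Wnt16, and below it for Wnt4, Wnt6, Wnt5b and Fzd2. With the mean level of this list as a term in the model, 0 of the 30 genes were called and 1 of the 14931 genes was. Wnt6 and Wnt16 then had log2 fold changes of -0.3 and -0.83, Wnt4 0.48, Wnt5b 0.6 and Sfrp1 0.03, whereas Apcdd1 had 0.59 (adjusted p = 0.346, the highest of its 12 alternatives, with 3.7e-09 the lowest) and Lef1 0.66. The part of these markers in the result was not tested, and in whole tissue fewer cells of a type and less RNA per cell cannot be told apart.

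Vessel markers were higher too. Of 14 endothelial markers 13 were in the table and tested, and 10 were higher in GDX males (median log2 fold change 0.49), with Cdh5 at 1.23, Abcb1a at 0.31 and Tek at 0.49. Their sum was 209, 261, 231, 259 and 237 CPM in intact males and 343, 352, 320, 327 and 284 CPM in GDX males, with Abcb1a the most counted. The groups did not overlap for this sum, and GDX male 2 was highest and GDX male 6 lowest of the GDX males. For Apcdd1, GDX male 5 was highest and GDX male 4 lowest. Of 10 markers of pericytes and smooth muscle 5 were higher (median 0.46), and their sum had a mean of 156 CPM in intact and 203 CPM in GDX males, with Myh11 the most counted. Schwann cell markers were higher for 2 of 6 tested (median 0.94, summed means 133 and 171 CPM, Pmp22 the most counted). Erythroid markers were higher for 4 of 4 tested (median 1.72, summed means 14.2 and 45.7 CPM, Hba-a2 the most counted and listed under 2 identifiers). Motor neuron markers were lower for 2 of 10, Slc18a3 (-0.43) and Nefh (-0.29), and the sum had means of 5630 CPM in intact and 4680 CPM in GDX males. No list had a marker at 0 in every library, and the part of these markers in the result was not tested. Astrocyte markers had 2 higher and 1 lower of 8, oligodendrocyte markers 2 higher of 8, their precursors 1 higher of 5, and microglia, ependymal and dorsal horn markers 0 of 7, 6 and 4 tested.

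**Figure D2:**
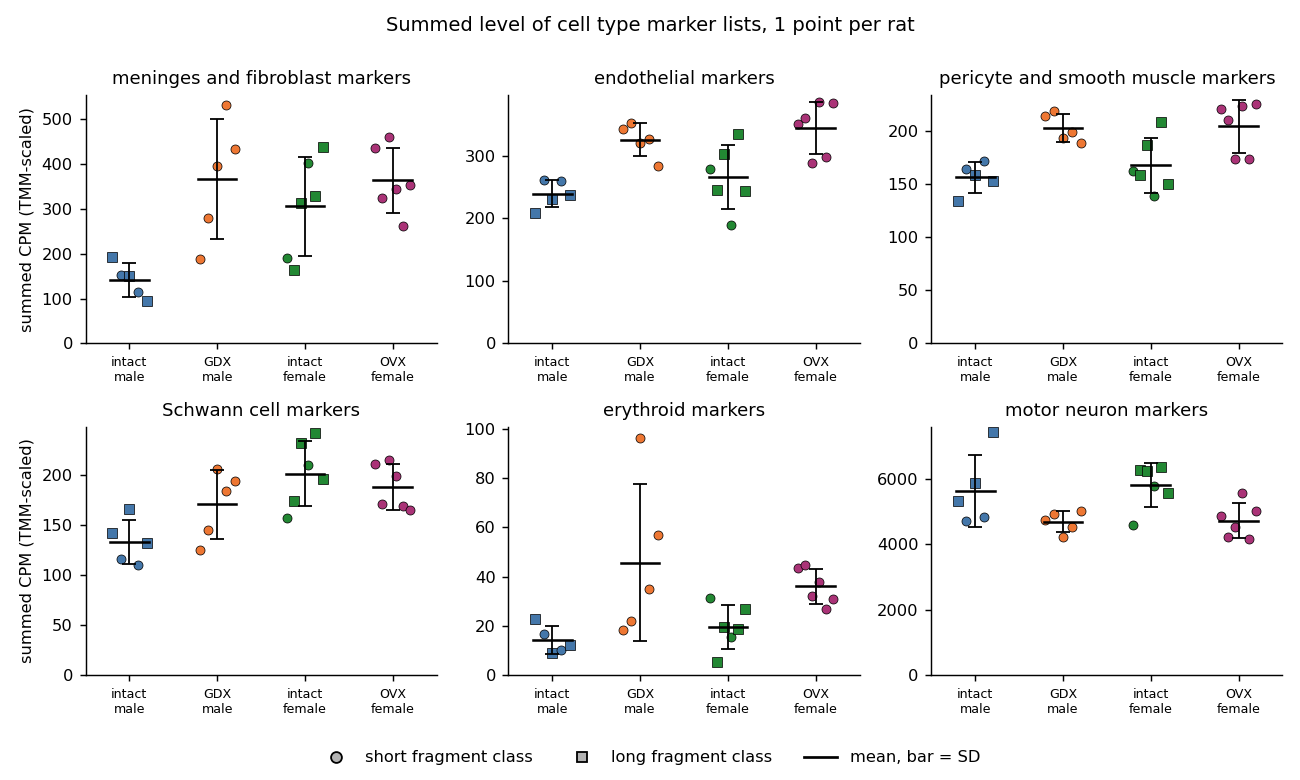
Summed CPM of 6 lists of cell type markers, 1 point per rat in each group, with the mean as a line and the SD as a bar; squares are libraries of the long fragment class. The meninges and fibroblast sum is lowest in the intact males, between 95.3 and 193 CPM, and GDX male 1 (189 CPM) lies within that range.

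**Figure D3:**
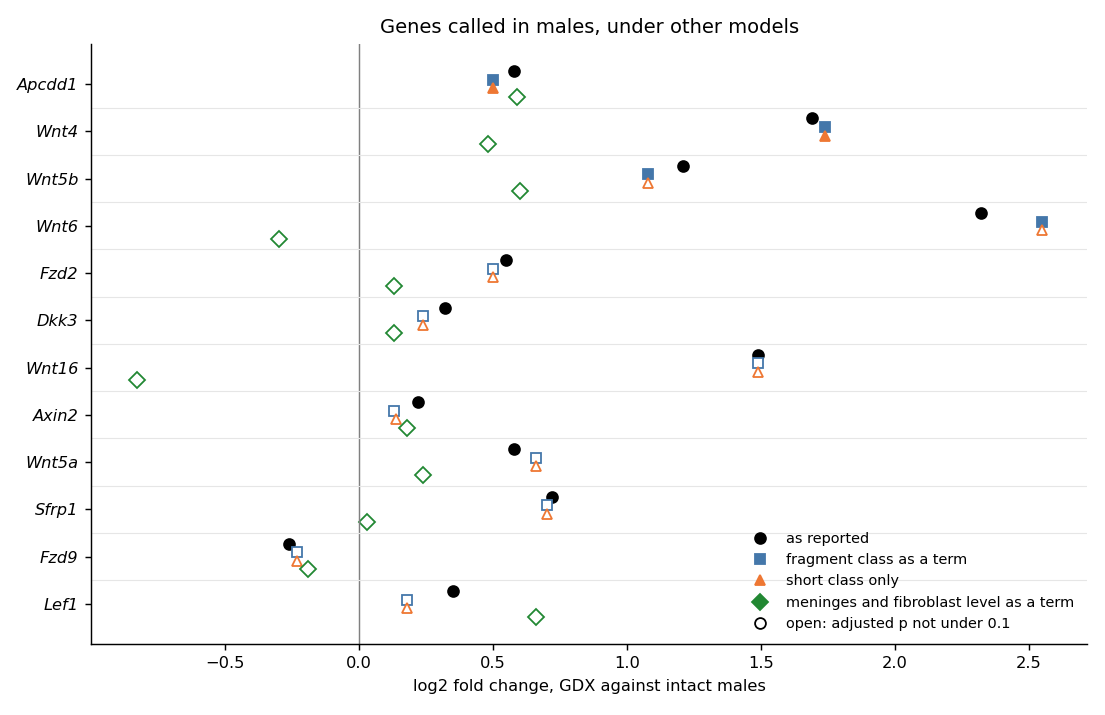
Log2 fold change, GDX against intact males, of the 12 genes as reported, with fragment class as a term, in the short class alone, and with the meningeal marker level entered as a term; open symbols are at an adjusted p of 0.1 or more. Wnt6 and Wnt16 turn negative with the list as a term, at -0.3 and -0.83. Apcdd1 lies between 0.5 and 0.59, but with the list as a term it was not called (adjusted p = 0.346).

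Other genes of the pathway were followed in lists, to be read beside the 13.4% of all genes tested that were called in males (6.78% higher and 6.58% lower). Of 4 genes of Wnt secretion, Wls, the carrier that takes Wnt proteins to the cell surface, was higher in GDX males (log2 fold change 0.36 ± 0.06, SE, adjusted p = 0.0065). Of 6 genes tested among R-spondins, their Lgr receptors and the ligases they control, Rnf43, a ligase that removes Frizzled from the surface, was lower (-0.22, adjusted p = 0.078). Of 6 further secreted or surface modulators tested, the glypican Gpc3 was higher (1.79 ± 0.38, SE, adjusted p = 0.0117). Of 5 further receptors, 2 were higher, Reck (0.35, adjusted p = 0.0482) and Adgra2 (0.36, adjusted p = 0.0573), which together let endothelial cells respond to Wnt7a and Wnt7b. In the beta-catenin cascade 1 of 11 was higher, Ctnnb1, which encodes beta-catenin (0.16, adjusted p = 0.0888), and 1 lower, the kinase Gsk3b (-0.12, adjusted p = 0.0938). None of 11 nuclear factors was called by edgeR. Of 7 known target genes tested 2 were higher, the cyclin Ccnd1 (0.27, adjusted p = 0.00949) and the endothelial factor Sox17 (0.55, adjusted p = 0.0544). Of 11 genes of planar polarity and calcium signalling 2 were lower, the cadherin Celsr3 (-0.39, adjusted p = 0.00985) and Nfatc2 (-0.35, adjusted p = 0.0193). In females no gene of these lists was called, and in intact males against intact females Gpc3 was the single one, lower in males (-1.28, adjusted p = 0.0638).

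In females, removal of the ovaries left 0 of the 30 genes tested at an adjusted p under 0.1 in edgeR, against 0.0335% of 14910 genes (0.0268% higher and 0.00671% lower). At an unadjusted p under 0.05 there were 4, against 10.2% of all genes tested. DESeq2 called 1 and edgeR's exact test called 1, Apcdd1 in both, where DESeq2 called 174 of 14481 genes and the exact test 95 of 14910. No gene's groups were apart, where 0.302% of all genes were higher and 0.241% lower without overlap. The median log2 fold change was 0.06, against 0.003 over all genes, and 23 of the 30 values were positive.

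The genes with the smallest p were an inhibitor of the pathway and its readout genes. Apcdd1 lay between 12.4 and 21.1 CPM in intact females (median 16.9) and between 20 and 25.7 CPM in OVX females (median 22.9). Intact female 5 overlapped the OVX range and the other intact females lay below it, with intact female 2 the lowest. The mean was 17.2 ± 2.95 CPM (SD, n = 6) in intact and 22.9 ± 2.21 CPM (SD, n = 6) in OVX females, a log2 ratio of 0.41 ± 0.1 (SE, adjusted p = 0.171), and without intact female 1 the adjusted p was 0.0907. Axin2 lay between 23.8 and 31.2 CPM in intact females (median 23.9) and between 26.2 and 31.4 CPM in OVX females (median 30.3). All intact females but number 5 were below all OVX females. The log2 fold change was 0.23 ± 0.07 (SE, adjusted p = 0.275). Lef1 lay between 3.5 and 8.34 CPM in intact females (median 6.31) and between 5.98 and 11.1 CPM in OVX females (median 8.6). The ranges overlapped, with intact female 5 high and OVX female 3 low. On the log2 scale the difference was 0.51 ± 0.17 (SE, adjusted p = 0.307). Lrp5 was the other gene at an unadjusted p under 0.05, between 18.3 and 23.5 CPM in intact females (median 20.9) and between 21.6 and 24.8 CPM in OVX females (median 23.1), with a log2 ratio of 0.17 (adjusted p = 0.367).

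None of the 5 ligands that were higher in GDX males was called in this comparison. Wnt4 lay between 2.63 and 8.59 CPM in intact females (median 8.06) and between 5.18 and 10.1 CPM in OVX females (median 6.69). Wnt6 lay between 2.25 and 7.22 CPM in intact females (median 5.69) and between 2.96 and 8.82 CPM in OVX females (median 4.27). For both genes intact females 1 and 2 were low and intact females 3 to 6 lay within the OVX range. Their log2 ratios were 0.1 and -0.03, at adjusted p of 0.944 and 0.986. Wnt5b lay between 1.31 and 3.05 CPM in intact females (median 2.32) and between 2.08 and 3.53 CPM in OVX females (median 2.79), and Wnt16 between 2.14 and 7.29 CPM (median 4.11) and between 2.48 and 7.03 CPM (median 5.37). Wnt5a lay between 3.73 and 6.56 CPM (median 4.67) and between 4.04 and 5.95 CPM (median 4.88). All 3 overlapped widely, with log2 fold changes of 0.37, 0.26 and 0.04.

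Receptors and the other modulators also overlapped between intact and OVX females. Fzd2 lay between 3.11 and 7.1 CPM in intact females (median 5.09) and between 3.82 and 6.41 CPM in OVX females (median 5.81). Fzd9 lay between 6.93 and 12.9 CPM (median 10.7) and between 8.43 and 10.6 CPM (median 9.34). The intact females spread more than the OVX females in both, and the log2 fold changes were 0.18 and -0.12. Sfrp1 lay between 2.25 and 7.51 CPM in intact females (median 5.23) and between 3.93 and 6.2 CPM in OVX females (median 5.24), and Dkk3 between 51.2 and 69.2 CPM (median 56.9) and between 53.5 and 73 CPM (median 62.4). Their log2 fold changes were 0.05 and 0.09. Lrp6 lay between 64.4 and 79.5 CPM (median 70.1) and between 68.8 and 77.3 CPM (median 70.5), Fzd3 between 24.5 and 31.7 CPM (median 28.8) and between 24.7 and 32.4 CPM (median 29.2), and Wnt7a between 23.2 and 27.9 CPM (median 25.3) and between 22.2 and 25.6 CPM (median 24.5). These most counted genes differed by less than the spread within the groups, with log2 fold changes of 0.02, 0.06 and -0.06. Fzd10 lay between 16.3 and 22.2 CPM (median 19.1) and between 18.5 and 21.5 CPM (median 19.8), and Wnt7b between 11.3 and 16.2 CPM (median 13.5) and between 12.2 and 16.1 CPM (median 14), with log2 fold changes of 0.08 and 0.01.

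In females none of 15 meninges and fibroblast markers was called by edgeR (median log2 fold change 0.25). Their sum lay between 164 and 439 CPM in intact females (191, 164, 313, 403, 329 and 439 CPM in rats 1 to 6) and between 263 and 461 CPM in OVX females. Intact females 1 and 2, which were low for Wnt4 and Wnt6, had the lowest sums. Of 13 endothelial markers Kdr was called (0.77, adjusted p = 0.0966), with a median of 0.36 and a sum between 189 and 335 CPM in intact and between 289 and 386 CPM in OVX females. None of the 10 pericyte and smooth muscle markers (median 0.26), 5 erythroid markers (0.9) or 10 motor neuron markers (-0.3) was called by edgeR, and no marker of any list was called in the test of a difference between the sexes in response. The part of these markers in the values was not tested.

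**Figure D4:**
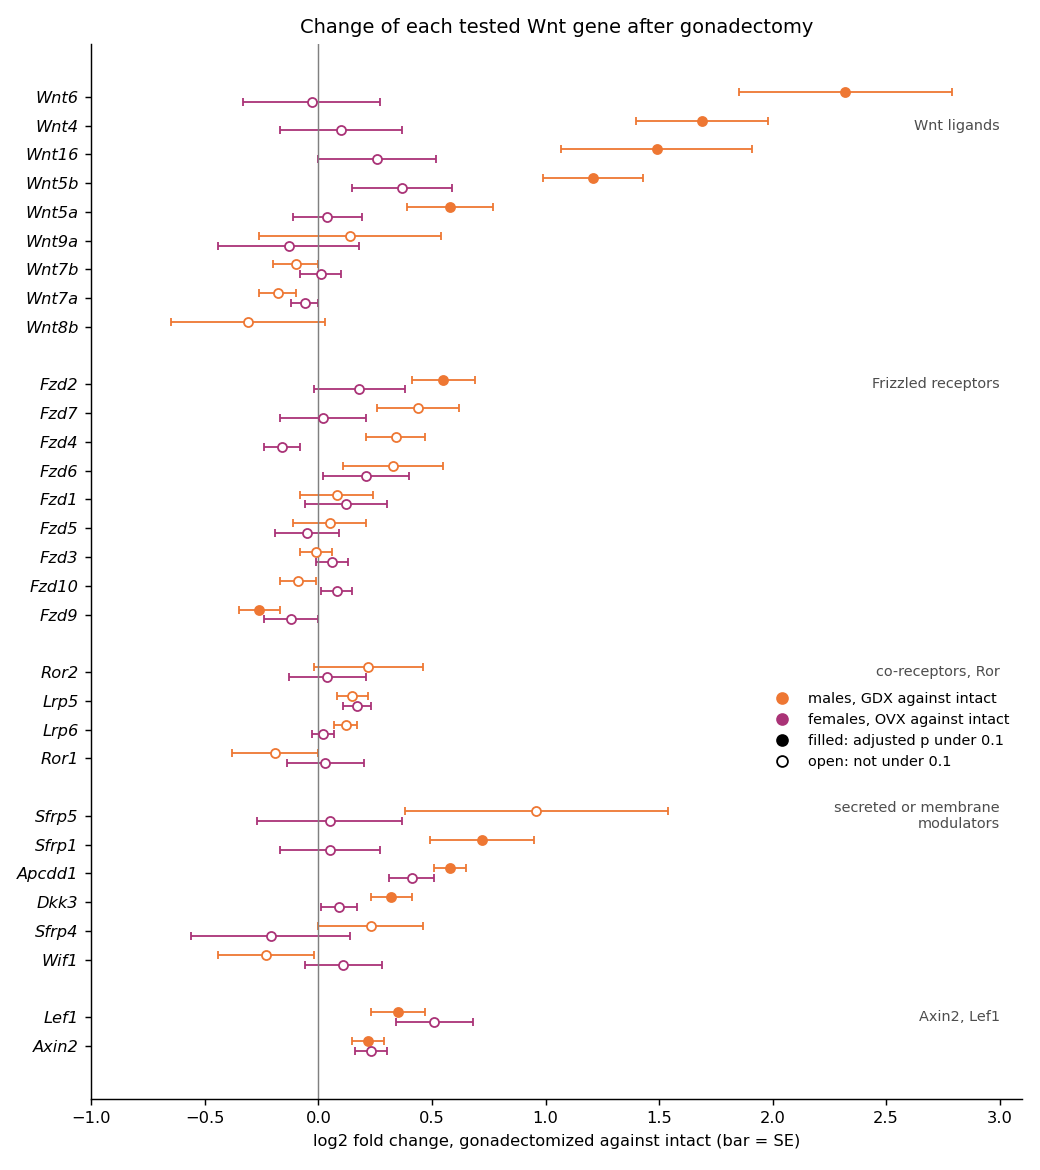
Log2 fold change with its SE for each gene tested, GDX against intact males and OVX against intact females, grouped by role; filled points are at an adjusted p under 0.1. In males the ligands Wnt6 (2.32) and Wnt4 (1.69) lie farthest to the right, whereas in females they lie at -0.03 and 0.1; Apcdd1, Axin2 and Lef1 lie to the right of 0 in both sexes.

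Whether the response differed between the sexes was tested as an interaction over all 22 rats. In edgeR 0 of 35 genes tested were called, against 0.116% of 15562 genes (0.09% with a positive value, the male minus the female log2 fold change, and 0.0257% with a negative one). At an unadjusted p under 0.05 there were 6, against 11.6% of all genes, and DESeq2 called 2, Wnt6 and Wnt4, among 246 of 15097 genes. Wnt6 had an interaction of 2.35 ± 0.61 (SE, adjusted p = 0.144) on the log2 scale, Wnt4 of 1.59 ± 0.44 (SE, adjusted p = 0.161) and Fzd4 of 0.5 ± 0.15 (SE, adjusted p = 0.173). Fzd4, the receptor for Norrin in retinal and brain vessels, had 7.23, 7.33, 8.23, 6.31 and 7.74 CPM in intact males and 8.82, 12.1, 7.28, 9.64 and 8.41 CPM in GDX males. In females it lay between 9.17 and 10.1 CPM in intact rats (median 9.48) and between 7.69 and 10.2 CPM in OVX rats (median 8.18). It was thus low in the intact males and high in GDX male 2. The other values at an unadjusted p under 0.05 were Wnt5b 0.85, Wnt16 1.24 and Wnt5a 0.55, with adjusted p of 0.275, 0.34 and 0.342. For Apcdd1, Axin2 and Lef1 the interaction was 0.18, 0 and -0.16, with adjusted p of 0.653, 1 and 0.842. The meninges and fibroblast markers had a median interaction of 1.3, with 0 of 15 called by edgeR. With the mean level of that list as a term the interaction was 0.22 for Wnt6 and 0.17 for Wnt4 (adjusted p = 0.995 for each, with 0.0534 and 0.0838 the lowest over their 10 alternatives) and 0.48 for Fzd4, and the part of these markers was not tested. Single rats changed the calls. Without GDX male 1, Wnt6 had 2.57 (adjusted p = 0.0506) and Wnt4 1.75 (adjusted p = 0.0753), and without intact female 1, 2.51 and 1.75 (adjusted p = 0.0771 for each). Without GDX male 2, Wnt6 had 2.52 (adjusted p = 0.0886), and without intact female 2, Wnt4 had 1.75 (adjusted p = 0.0987).

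Without surgery the sexes differed in Wnt6, Wnt4, Wnt16, Wnt5b, Wnt5a and Dkk3, which were also called in GDX against intact males. They also differed in Fzd4, Fzd7 and Sfrp5, which were not called there. Whether this overlap exceeds what shared intact males would give was not tested. In intact males against intact females, which shares the 5 intact males with the comparison of GDX and intact males, 9 of 29 genes tested were called and all 9 were lower in males, against 4.01% of 14937 genes (1.45% higher and 2.56% lower). Without adjustment, at p under 0.05, there were also 9, against 15.5% of all genes. The groups did not overlap for 3 genes lower in males, Wnt6, Wnt4 and Fzd4 (1.49% of all genes), and for 0 genes higher (1.19%). The median log2 fold change was -0.2, against 0.003 over all genes. By role, 5 of 8 ligands, 2 of 9 Frizzled receptors, 0 of 4 co-receptors, 2 of 6 modulators and 0 of Axin2 and Lef1 were lower.

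Wnt6 was at most 1.42 CPM in intact males and at least 2.25 CPM in intact females, with a log2 ratio of -2.41 ± 0.4 (SE, adjusted p = 0.00639). For Wnt4 the highest intact male had 2.62 CPM and the lowest intact female 2.63 CPM, so that the groups only just failed to overlap, and the log2 fold change was -1.78 ± 0.35 (SE, adjusted p = 0.0157). Wnt16 overlapped by intact female 2 (2.14 CPM) and intact male 2 (2.15 CPM), with -1.34 ± 0.29 (SE, adjusted p = 0.0239). The other ligands called were Wnt5b (-0.92, adjusted p = 0.0769) and Wnt5a (-0.64, adjusted p = 0.0774). Each of these 2 calls was lost in 8 of 11 fits with a rat left out. They were also lost in 6 (Wnt5b) and 4 (Wnt5a) of 12 alternatives. Among receptors Fzd4 had -0.37 ± 0.09 (SE, adjusted p = 0.0329) and Fzd7, a receptor of early development and stem cells, had -0.62 (adjusted p = 0.0743). The modulators called were Sfrp5 (-1.68 ± 0.45, SE, adjusted p = 0.0638), a secreted Wnt inhibitor, and Dkk3 (-0.3, adjusted p = 0.074). With a rat left out, the Sfrp5 and Dkk3 calls were each lost in 6 of 11 fits and the Fzd7 call in 7. The calls of Wnt6, Wnt4, Wnt16 and Fzd4 were kept in all 11. Of 12 alternatives, 4 lost the Sfrp5 call, 4 the Dkk3 call and 5 the Fzd7 call. Set side by side, the values for GDX against intact males and for intact males against intact females were 2.32 and -2.41 for Wnt6, 1.69 and -1.78 for Wnt4, 1.49 and -1.34 for Wnt16, 1.21 and -0.92 for Wnt5b, 0.58 and -0.64 for Wnt5a, 0.55 and -0.21 for Fzd2, 0.72 and -0.53 for Sfrp1, 0.32 and -0.3 for Dkk3, 0.58 and -0.16 for Apcdd1 and 0.22 and -0.08 for Axin2. Lef1 (0.35 and 0.22) and Fzd9 (-0.26 and -0.09) had the same sign in both. A low or high intact male enters both values of a pair and pushes them to opposite signs, and how often signs would differ without any change was not computed.

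The same markers moved here. Of 15 meninges and fibroblast markers 12 were lower in intact males (median log2 fold change -1.23), as were 4 of 6 Schwann cell markers (median -1.13) and 1 of 13 endothelial markers, Cdh5 (-1.13). The sums of the meninges list in the intact males, 95.3 to 193 CPM, overlapped with intact females 1 and 2. With the level of that list as a term 0 of the 29 genes were called, Wnt6 having -0.47, Wnt4 -0.16 and Wnt16 0.01, and all 9 were called with fragment class as a term. Within the short class, with 2 intact males and 2 intact females, 0 were called and the values were -2.56, -1.64 and -1.59. The part of these markers in the result was not tested.

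**Figure D5:**
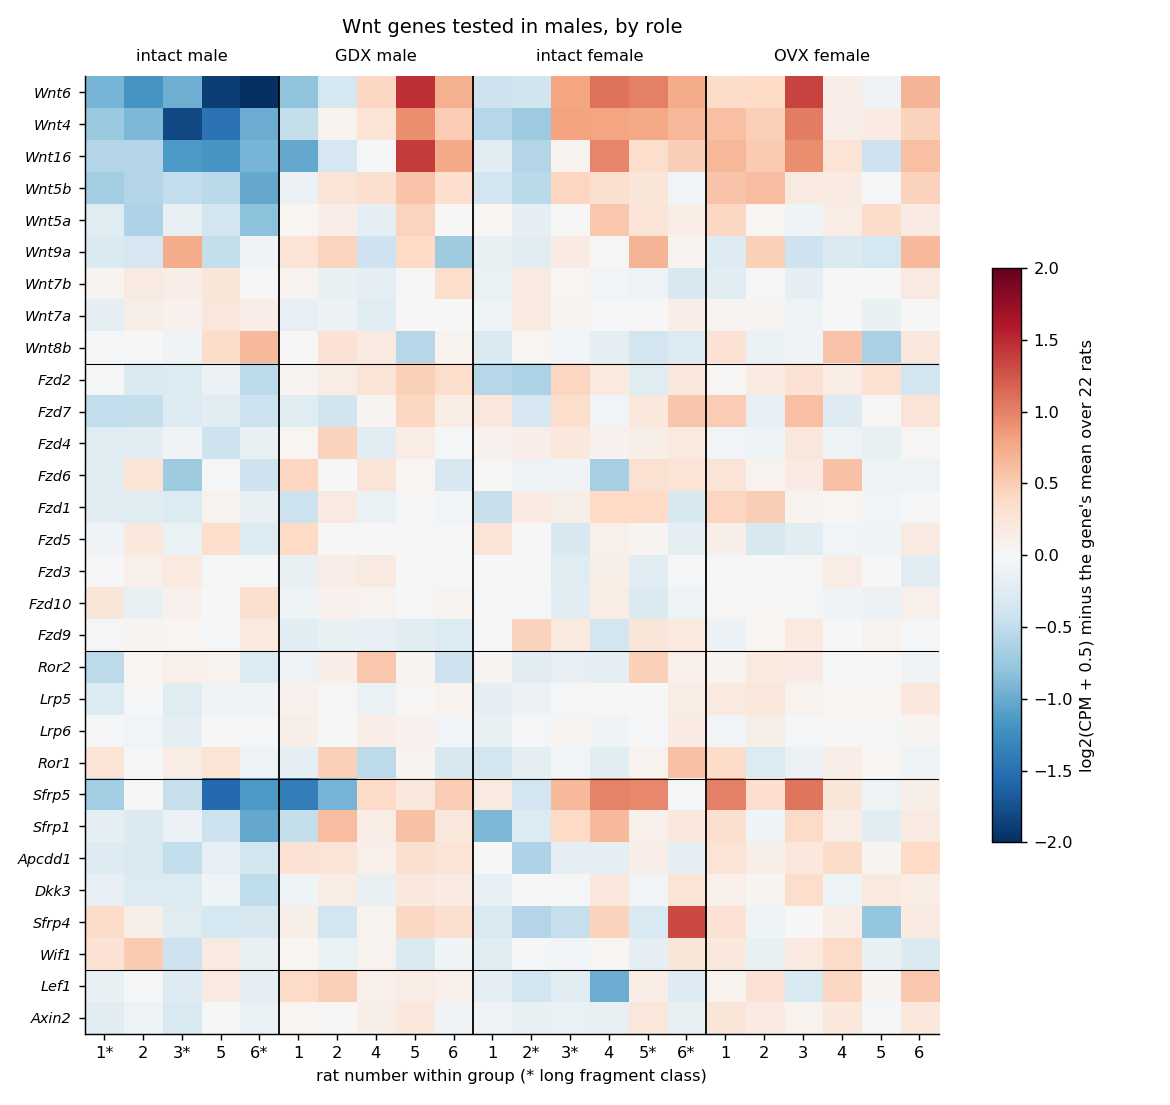
Level of each gene tested in males in all 22 rats, grouped by role, with an asterisk on rats of the long fragment class. The level is log2 of CPM plus a small offset, given at the colour bar, minus the gene's mean over the rats. Wnt6, Wnt4 and Wnt16 are low in all 5 intact males, and intact females 1 and 2 are lower than intact females 3 to 6 in Wnt4 and Wnt6.

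In GDX males against OVX females, where all libraries are of the short class, 0 of 31 genes were called by edgeR, DESeq2 or the exact test, against 0.232% of 15084 genes in edgeR (0.119% higher and 0.113% lower). At an unadjusted p under 0.05 there was 1, Fzd9, against 9.37% of all genes. Fzd9 lay at 7.56 to 8.25 CPM in GDX males and 8.43 to 10.6 CPM in OVX females, without overlap (0.597% of all genes were lower and 0.756% higher in this way), with a log2 ratio of -0.24 ± 0.09 (SE, adjusted p = 0.402). Lrp5 had -0.12 (adjusted p = 0.593). Fzd1, one of the receptors for canonical ligands, had 2.99, 4.79, 3.78, 4.11 and 4.04 CPM in GDX males and 4.01 to 6.13 CPM in OVX females (median 4.38), with a log2 ratio of -0.29 (adjusted p = 0.607). In the intact rats it had 3.54, 3.48, 3.4, 4.45 and 3.74 CPM in males and 2.92 to 5.69 CPM in females (median 4.69). GDX males 1 and 4 were below all OVX females, and the remaining values were mixed. With so few genes called in the whole table, 0 calls do not single out these genes. The largest value was that of Sfrp5, at -0.77 (adjusted p = 0.612, means of 1.25 CPM in GDX males and 2.11 CPM in OVX females), beside -1.68 between the intact sexes. Wnt6, Wnt4 and Apcdd1 had -0.07, -0.19 and 0.01, with adjusted p of 0.975, 0.842 and 0.971. The meninges and fibroblast markers had a median of 0.01, with 0 of 15 called by edgeR.

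Fragment class was compared within the 11 intact rats with sex as a term. In edgeR 0 of 30 genes were called, against 0.0066% of 15147 genes (0% higher and 0.0066% lower in the long class), and DESeq2 called 0. At an unadjusted p under 0.05 there were 2, against 7.72% of all genes, Fzd5 (-0.39 ± 0.13, SE, adjusted p = 0.472) and Fzd9 (0.29 ± 0.11, SE, adjusted p = 0.564), followed by Wnt9a (0.62 ± 0.33, SE, adjusted p = 0.703). Fzd5, a receptor for several canonical ligands, had 5.77 and 6.43 CPM in the short-class intact males 2 and 5 and 4.68, 4.46 and 4 CPM in the long-class males 1, 3 and 6, and 6.63, 4.9, 4.92, 4.96 and 4.82 CPM in GDX males. In females it lay between 3.86 and 5.96 CPM (median 5.06, intact) and between 3.84 and 5.62 CPM (median 4.69, OVX). Short-class intact rats were thus the higher ones in males. The same order held in intact females. Short-class females 1 and 4 had 5.96 and 5.32 CPM, and the long-class females had 3.86 to 5.14 CPM. Wnt9a had 0.779, 0.74, 2.11, 0.618 and 0.984 CPM in intact males and 1.39, 1.62, 0.674, 1.56 and 0.456 CPM in GDX males, and lay between 0.83 and 2 CPM in intact females (median 1.11) and between 0.673 and 1.95 CPM in OVX females (median 0.794). Intact male 3 and intact female 5, both of the long class, were its highest intact rats. With a rat left out the value for Fzd9 lay between 0.17, without intact female 4 (6.93 CPM), and 0.35, without intact male 2. The short-class intact males 2 and 5 had 9.62 and 9.02 CPM of Fzd9, and the GDX males at most 8.25 CPM. The part of fragment class in the Fzd9 difference between GDX and intact males was not tested. For Wnt4, Wnt6 and Apcdd1 the class difference was 0.21, 0.21 and -0.12.

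The mean of the male and the female change was added as a comparison after the data had been seen, since Apcdd1, Axin2 and Lef1 had similar values in both sexes. For those 3 genes it restates the values that prompted it, so their p is not given. Over all 22 rats 13 of 35 genes were called by edgeR, 12 with a positive and 1 with a negative mean. A positive mean does not describe both sexes for every gene, since Wnt6, Wnt4 and Wnt5a had -0.03, 0.1 and 0.04 in females and 2.32, 1.69 and 0.58 in males. Among the 13 are the 3 genes that prompted the comparison, so the count says nothing about the set beside the share of all 15562 genes, which was 16% (7.56% higher and 8.41% lower), or 24.5% before adjustment at p under 0.05. Their mean log2 fold changes were 0.49 ± 0.07 (SE) for Apcdd1, 0.22 ± 0.05 (SE) for Axin2 and 0.43 ± 0.11 (SE) for Lef1. Lrp5, at 0.16 ± 0.05 (SE, adjusted p = 0.0283), Dkk2, at 0.74 ± 0.25 (SE, adjusted p = 0.0534), and the single lower gene Wnt7a, at -0.13 ± 0.05 (SE, adjusted p = 0.0942), were called here. Of these, the Wnt7a call was lost in each of 3 alternatives (adjusted p 0.11 to 0.362) and in 15 of 22 fits with a rat left out, and the Lrp5 and Dkk2 calls in 2 of the 3. In males alone Lrp5 and Wnt7a did not pass and Dkk2 had too few counts to be tested. With fragment class as a term 3 of the 13 were called, Apcdd1, Wnt5b and Wnt4. Within the short class 1 was, Apcdd1, with Apcdd1 at 0.42, Axin2 at 0.2 and Lef1 at 0.48. The Axin2 and Lef1 calls were lost in both settings.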

How the data were processed

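The gene counts were used as deposited by the authors, whose notes name FastQC, TopHat2 2.0.13, Subread and edgeR with build Rnor_6.0, whereas the study's methods name Hisat2. Labels name a TruSeq kit and the methods a SMARTer Pico kit. Strand and multi-mapping settings are not given in the sources used here. Fragment class and RIN came from the methods' tables, joined by library code; those tables also number the males 1 to 5 in order, so some male numbers there differ from the labels' numbers used here. No sample column was left unused.

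Each comparison was fitted in edgeR 4.0.16 (R 4.3.3) with filterByExpr, TMM scaling and the quasi-likelihood test, with Benjamini-Hochberg adjustment over all genes tested. A prior count of 2 was set only for log2 CPM, such as that of the meningeal marker level, and not for the fits. A gene was called at an adjusted p under 0.1. Alternatives were DESeq2 1.42.0, edgeR's exact test, other scaling and filters, terms for RIN, fragment class and meningeal markers, the short class alone, a replicate block, and leaving out each rat.

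Values per rat are given for genes at an adjusted p under 0.1 in males, the 3 of smallest p elsewhere, and the 2 most counted of each role. Genes and marker lists were chosen with earlier results of these data known. The mean change of both sexes was added after the data had been seen. The steps were tested on simulated counts.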

Additional observations from a re-analysis of the deposited data

Results flagged for a closer look

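A search through 25 of the genes in each group of rats, 100 groups in all, looked for a lone value far from its neighbours and found 6 (6%). Chance alone picks out about 1 in 20 groups under the same search.

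Apcdd1 in GDX male 4 was 20.8 CPM, with the other GDX males between 23.2 and 24.1 CPM. Axin2 in intact female 5 was 31.2 CPM, with the others between 23.8 and 25.2 CPM. Dkk2 in GDX male 2 was 1.04 CPM, against 0.496 to 0.652 CPM. Fzd5 in GDX male 1 was 6.63 CPM, against 4.82 to 4.96 CPM. Wnt9a was 2.11 CPM in intact male 3, against 0.618 to 0.984 CPM, and 2 CPM in intact female 5, against 0.83 to 1.24 CPM.

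All rats were kept. The cause of these values was not tested.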

How the results depend on the processing

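For GDX against intact males the number of genes called, 12 in edgeR, was 11 with DESeq2, 11 with the exact test, 12 with RLE scaling, 10 without a filter, 12 with a filter at 1 CPM and 13 when fitted on all 22 rats. It was 7 at an adjusted p under 0.05, 7 with RIN as a term, 4 with fragment class as a term, 2 in the short class alone and 0 with the meningeal markers as a term. Over all genes tested the calls in these last 3 settings were 796, 440 and 1, against 1995. Leaving out single rats gave 6 to 10, with 6 when GDX male 5 was left out. The cause of these shifts was not tested.

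With rat number as a replicate block the male number was 6 (Apcdd1, Wnt4, Wnt5b, Wnt6, Dkk3 and Wnt5a), the female number 0, the interaction 0 and the intact sexes 1. Over all genes the block gave 1280 of 14949 in males, 0 in females, 0 for the interaction and 252 of 14863 for the intact sexes. Rats of the same number share a label only, and no paired design is described.

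Apcdd1, Wnt4, Wnt5b, Wnt6, Fzd2 and Dkk3 were called in males whichever of the 10 rats was left out. Signs changed for Wnt6 and Wnt16 in males with the meningeal markers as a term (-0.3 and -0.83). In females signs changed with class as a term for Wnt6 (0.07), Wnt5a (-0.13) and Fzd9 (0.23), in the short class for Wnt6 (0.06), Wnt5a (-0.14) and Fzd9 (0.22), with the meningeal markers as a term for Wnt4 (-0.05) and Sfrp1 (-0.07), and in the replicate block for Wnt6 (0.02). Leaving out single females gave -0.06 to 0.2 for Wnt4, -0.28 to 0.1 for Wnt6, -0.02 to 0.14 for Wnt5a and -0.11 to 0.19 for Sfrp1.

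In females 1 gene was called by DESeq2 and 1 by the exact test, Apcdd1 in both (adjusted p of 0.0251 and 0.0445, within 0.0251 to 0.667 over its alternatives), and leaving out single rats gave 0 to 1. For the interaction DESeq2 called 2, Wnt6 (2.35, adjusted p = 0.0534) and Wnt4 (1.6, adjusted p = 0.0838), with adjusted p up to 0.995 over the alternatives of each, and leaving out single rats gave 0 to 2.

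For intact males against intact females, 9 genes in edgeR became 4 at an adjusted p under 0.05, 0 in the short class (34 of 15130 genes) and 0 with the meningeal markers as a term (22 of 14937), where Wnt16 changed sign (0.01). There were 9 with class as a term, DESeq2, the exact test, RLE scaling and the filter at 1 CPM, and 8 with RIN as a term, without a filter and on all 22 rats. Leaving out single rats gave 4 to 9, with 4 without intact male 1 or 6. GDX males against OVX females and the fragment classes gave 0 in every setting. The mean change of both sexes had 13 calls in edgeR, 12 in DESeq2, 3 with class as a term and 1 in the short class, and 9 to 15 with single rats left out.

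Limits: surgery and fragment class overlap, so that only 2 intact males and 2 intact females share a class with the operated rats. The meningeal marker level itself differs between the groups, so a term for it removes part of any difference that goes with it. Groups hold 5 or 6 rats. The tissue is a mixture of cells, and no hormone level, cell count or protein was analysed here. Several ligands have few counts per library. Promoter windows come from a newer build than the counts, and 13 of the 45 genes had no matched entry.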

Other observations

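The genes that the filter dropped in males were not all silent. Summed over the 22 libraries, Dkk2 had 189 counts, Wnt9b 179, Wnt2b 169, Wnt11 160, Sfrp2 157, Wnt3 118, Wnt10a 71, Wnt2 37, Wnt10b 25, Dkk4 22 and Fzd8 21. Sfrp4, which was tested, reached 6.81 CPM in intact female 6, with a mean of 2.85 CPM over the 6 intact females.

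In the mean change of both sexes 12 of 13 endothelial markers were higher after gonadectomy (median log2 ratio 0.42), 13 of 15 meninges and fibroblast markers were higher (0.76), and 5 of 10 motor neuron markers were lower (-0.22). Of all genes tested there, 7.56% were higher and 8.41% lower. A mean need not describe both sexes. Of the 15 meninges and fibroblast markers, 15 were higher in males (median 1.53) and 0 in females (0.25). Of the 13 endothelial markers, 10 were higher in males (0.49) and 1 in females (0.36). Motor neuron markers had a median of 0.37 in the long against the short fragment class of intact rats, with 0 of 10 called by edgeR.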
